A study of Mus musculus with 47 samples.

Results

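Glucocorticoid response genes were followed through 3 brain regions of mice carrying a Huntington's disease transgene. The 10 genes were taken by symbol (Fkbp5, Sgk1, Tsc22d3, Zbtb16, Sult1a1, Pdk4, Nr3c1, Errfi1, Mt1 and Mt2), each by its brightest probe over all arrays, out of 15967 annotated genes on the array. Expression was read from total RNA on Illumina BeadChips, with 47 arrays in 12 groups, of which 11 held 4 arrays and wild-type control cerebellum held 3. The mice were R6/2(300Q) transgenics, which express a fragment of mutant human huntingtin with a long glutamine repeat, or wild-type mice, all on a mixed CBA x C57BL/6 background. HDACi 4b, an inhibitor of histone deacetylases, was given in place of drinking water at 1 mg/ml for 67 days from 4 months of age, and the control groups carry the label cntr with no vehicle named. All groups hold males and females. The labels name no separate animals and do not say whether the regions came from the same mice, so p-values measure only the spread between these samples, which may be technical, and arrays of different regions may share a mouse.

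Glucocorticoids cross the cell membrane and bind the glucocorticoid receptor, encoded by Nr3c1, which is held ready by chaperones, enters the nucleus and binds DNA at paired half-sites. In brain, corticosterone rises with the daily cycle and with stress, and genes such as Fkbp5, Sgk1 and Tsc22d3 rise within hours. Fkbp5 encodes a co-chaperone that lowers the receptor's affinity for hormone, and Tsc22d3 (GILZ) encodes a leucine zipper protein that mediates anti-inflammatory effects of the hormone. Metallothioneins bind zinc and copper and respond to metals through a separate factor, MTF-1, as well as to glucocorticoids.

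Promoter letters are shown for Sgk1, Mt1 and Mt2, whose windows held the full receptor motif or several copies of the metal-response core. RefSeq windows on GRCm38.p6, from 250 bases before to 50 after each start, were found for 8 of the 10 genes (16 windows). In all, 7 motifs were searched on both strands. The Sgk1 window at chr10:21993640-21993939 (plus strand) is shown first, with the receptor palindrome (AGAACA, any 3 bases, TGTTCT) in capitals; the Mt1 window at chr8:94178839-94179138 and the Mt2 window at chr8:94172368-94172667 (both plus strand) have TGCACNC or TGCGCNC, on either strand, in capitals.
Sgk1: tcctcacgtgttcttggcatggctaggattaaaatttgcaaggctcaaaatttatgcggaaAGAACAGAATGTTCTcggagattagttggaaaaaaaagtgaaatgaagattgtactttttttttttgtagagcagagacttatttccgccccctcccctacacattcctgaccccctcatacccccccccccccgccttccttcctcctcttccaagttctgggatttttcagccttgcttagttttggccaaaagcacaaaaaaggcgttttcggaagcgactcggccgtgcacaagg
Mt1: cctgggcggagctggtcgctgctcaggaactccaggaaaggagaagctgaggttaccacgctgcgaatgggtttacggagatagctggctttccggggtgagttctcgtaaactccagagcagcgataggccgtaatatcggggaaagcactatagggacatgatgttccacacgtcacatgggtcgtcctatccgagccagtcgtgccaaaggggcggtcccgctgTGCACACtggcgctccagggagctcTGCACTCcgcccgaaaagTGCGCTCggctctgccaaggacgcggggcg
Mt2: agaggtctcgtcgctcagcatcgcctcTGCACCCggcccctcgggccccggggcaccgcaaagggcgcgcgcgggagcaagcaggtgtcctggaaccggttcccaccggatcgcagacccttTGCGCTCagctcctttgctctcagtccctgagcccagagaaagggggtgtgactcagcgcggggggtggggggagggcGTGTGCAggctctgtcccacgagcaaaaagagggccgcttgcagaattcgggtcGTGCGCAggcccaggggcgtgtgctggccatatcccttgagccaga
The Sgk1 palindrome begins 189 bases before the start site, and 3 of 32851 windows (0.00913%) held it. The looser form GNACA, any 3 bases, TGTNC, which overlaps the palindrome, was in 0.475% of windows, and among these genes in those of Sgk1 and Mt1. The form GNACA, any 3 bases, TGTTC, was in 0.271% of windows and in the same 2 genes. The half-site AGAACA was in 19.0% of windows and in those of Sgk1, Sult1a1 and Tsc22d3. Shares are per window, while Sgk1 has 6 windows, Tsc22d3 3 and Errfi1 2, and the other genes found have 1 each. The metal-response cores TGCACNC and TGCGCNC were in 12.6% and 15.4% of windows, Mt1 and Mt2 held both, and 1 Sgk1 window held TGCGCNC. At least 3 copies of either core, a count chosen after the matches were seen, were in 1.97% of windows, Mt1 (3) and Mt2 (4) among them. TGANTCA was in 7.81% of windows and in that of Mt2. A match describes these letters only.

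Levels below are log2 intensities after background correction and quantile normalization, and genes were not ranked by level, since probes differ in brightness. Of the 10 genes, 9 passed the filter on dim probes (a region mean above the 40th percentile of all probes) in every region. Nr3c1, the receptor itself, did not pass in any region. Its levels ran from 6.10 to 7.38 over the arrays, some of them above and some below 6.75, the highest level of 3 Y-linked probes on the 26 female arrays (mean 6.30). It was not tested. Tsc22d3 has a second, dim probe (mean 6.63) whose within-group deviations correlated with the brighter one at -0.45, so Tsc22d3 results rest on 1 probe. The 2 Sgk1 probes correlated at 0.88. Region markers matched the labels: Ppp1r1b was highest in striatum, Tbr1 in cortex and Pcp2 in cerebellum, with no overlap between the named region and the others, although Pcp2 reached 11.26 on a striatal array.

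**Figure D1:**
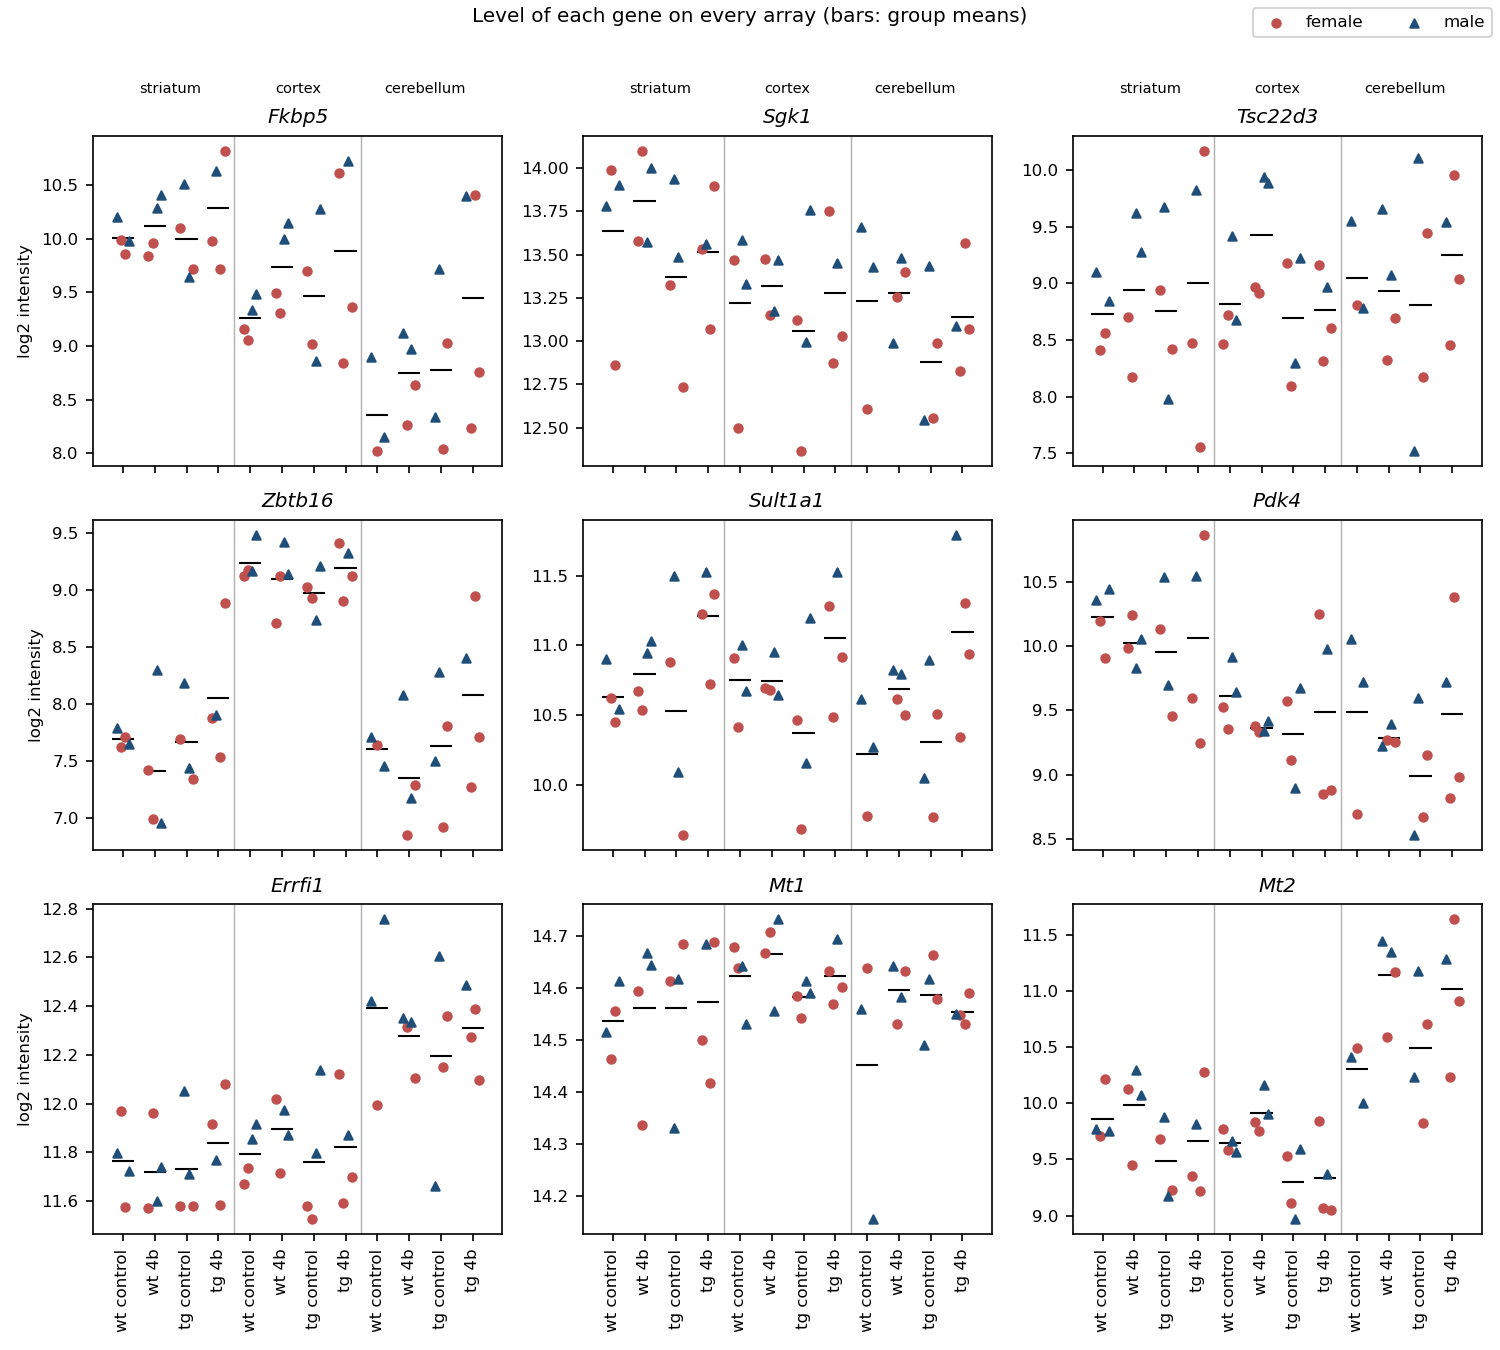
Log2 intensity (y) of the 9 genes above the filter on every array, by group (x; wt, wild-type; tg, transgenic), with circles for females, triangles for males and bars for group means. Zbtb16 stands highest in cortex, Mt2 and Errfi1 in cerebellum, and the transgenic groups of Fkbp5 spread more widely than the wild-type groups; each panel has its own y range.

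Between regions of control wild-type mice, Zbtb16, Fkbp5 and Errfi1 passed the test, a smaller share of the 9 than of all genes. Zbtb16, a zinc finger transcription repressor (PLZF), lay at 9.13, 9.18, 9.17 and 9.49 in cortex, at 7.79, 7.63, 7.71 and 7.65 in striatum, and at 7.71, 7.64 and 7.46 in cerebellum. Every cortical array lay above every array of the other regions. The log2 difference was -1.55 ± 0.29 (SE) for striatum minus cortex (limma, adjusted p = 4.9e-05) and 1.64 ± 0.32 for cortex minus cerebellum (limma, adjusted p = 4.4e-05). Fkbp5 lay at 10.20, 9.98, 9.86 and 9.98 in striatum and at 8.90, 8.03 and 8.15 in cerebellum, a difference of 1.65 ± 0.43 (SE; limma, adjusted p = 0.0016) with no overlap. Errfi1, a feedback inhibitor of the EGF receptor, was lower in striatum than in cerebellum by a log2 difference of -0.62 ± 0.17 (SE; limma, adjusted p = 0.0024) and in cortex than in cerebellum by -0.60 ± 0.17 (SE; limma, adjusted p = 0.0039). Without cerebellum wild-type control replicate 4 (12.76) the Errfi1 values were -0.44 and -0.41 and did not pass (limma, adjusted p = 0.055 and 0.078). In all, 1 of 9 genes passed for striatum against cortex, 2 for striatum against cerebellum and 2 for cortex against cerebellum, beside 30.2%, 44.4% and 43% of all genes tested. None of the 9 passed a limma test of genotype by region (1.9%, 4.75% and 2.73% of all genes), and 0 had an unadjusted p under 0.05 (10.5%, 15.8% and 13.2%).

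The other genes above the filter did not pass between regions under the main settings. In control wild-type mice Mt2 ran from 9.57 to 9.77 in cortex and from 10.01 to 10.50 in cerebellum, without overlap, and from 9.71 to 10.21 in striatum. Cortex minus cerebellum passed for Mt2 with the 60th percentile filter (-0.66, limma, adjusted p = 0.049). It also passed without cerebellum wild-type control replicate 4 (-0.81, limma, adjusted p = 0.042). Pdk4 had its highest levels in striatum, where wild-type samples ran from 9.83 to 10.45 (median 10.12), beside 9.33 to 9.92 in cortex (median 9.40) and 8.69 to 10.05 in cerebellum (median 9.27). Its control difference of striatum minus cerebellum was 0.74 ± 0.35 (SE, limma, adjusted p = 0.084), and cortex and cerebellum differed by 0.12 ± 0.35. Without cerebellum wild-type control replicate 1, striatum minus cerebellum passed for Pdk4 (1.02, limma, adjusted p = 0.031). Sgk1 ran from 12.86 to 14.10 in wild-type striatum, 12.50 to 13.58 in cortex and 12.61 to 13.66 in cerebellum, ranges that overlap. Tsc22d3 lay between 8.17 and 9.93 over all wild-type samples, with medians of 8.77, 8.94 and 8.81 in striatum, cortex and cerebellum. Mt1 lay at the 99.8th to 99.9th percentile of all probes in every region, with levels from 14.15 to 14.73. Whether its probe could still respond at that level was not tested, so small differences of Mt1 carry little weight.

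Between genotypes 1 of the 9 genes passed, Mt2 in cortex when both treatments were averaged. With 9 genes, counts of 0 or 1 passing do not set these genes apart from the shares of all genes given beside them. Under control treatment 0 of 9 genes passed in any region, where 3.78% of all genes passed in striatum, 5.09% in cortex and 0.689% in cerebellum (limma), and 0 of 9 had an unadjusted p under 0.05 (17.7%, 17.8% and 12.4% of all genes). The intervals were wide. For Fkbp5 the log2 difference, transgenic minus wild-type, was -0.01 (95% interval -0.49 to 0.46) in striatum, 0.20 (-0.58 to 0.99) in cortex and 0.42 (-0.64 to 1.49) in cerebellum. Under 4b 0 of 9 passed again (4.51%, 5.52% and 1.44% of all genes), with 1, 2 and 0 genes at an unadjusted p under 0.05 (17.5%, 21.3% and 12.5%). Mt2 in cortex lay at the threshold (-0.58, limma, adjusted p = 0.050). It passed under 8 alternatives and without cortex transgenic 4b replicate 1 (-0.75, adjusted p = 0.0087), and the adjusted p reached 0.37 with BeadChip as a fixed block. In control striatum and cortex no BeadChip held both genotypes, so that BeadChip and genotype cannot be told apart there, and in control cerebellum 1 did.

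Mt2, a metallothionein, was the exception when both treatments were averaged. In cortex it lay at 9.77, 9.59, 9.67 and 9.57 in wild-type control and at 9.84, 9.75, 10.17 and 9.90 in wild-type 4b samples. The transgenic values were 9.54, 9.12, 8.97 and 9.59 under control and 9.84, 9.07, 9.37 and 9.05 under 4b. The genotypes overlapped, and Mt2 fell by 0.46 on the log2 scale (SE 0.12; limma, adjusted p = 0.015; 13.6% of all genes passed and 7.7% were lower). The call was lost with all 47 arrays in 1 fit (-0.46, adjusted p = 0.10) and with BeadChip as a fixed block (-0.40, adjusted p = 0.30, limma), the highest adjusted p of any alternative. In striatum Mt2 was lower by a similar size that did not pass (-0.35, limma, adjusted p = 0.18), and in cerebellum the difference was 0.03. In striatum (13.7% of all genes) and cerebellum (5.25%) 0 of 9 passed, with 1 and 0 at an unadjusted p under 0.05 (27.4% and 18.9%; limma).

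Genes outside the 10 were taken from wider lists. Of 31 other glucocorticoid-induced genes tested in cortex, 1 rose and 7 fell in transgenic mice over both treatments, with a list median of -0.03 beside 0.016 for all genes tested, of which 13.6% passed. Glul, glutamine synthetase of astrocytes, fell by 0.68 (SE 0.08), Fam107a by 0.76 (SE 0.13) and the clock gene Per1 by 0.51 (SE 0.09), while Serpina3n, an acute phase protease inhibitor, rose by 0.77 (SE 0.18; limma, adjusted p = 3.5e-05, 0.001, 0.001 and 0.0083 in that order). In striatum 1 of 33 rose (Serpina3n) and 5 fell, beside 13.7% of all genes, and in cerebellum 0 of 32 passed, beside 5.25%. Of 14 receptor partners and steroid-handling genes tested in cortex, Hsd11b1, which regenerates active glucocorticoid, fell by 0.91 (SE 0.11; limma, adjusted p = 3.3e-05), and Crebbp rose by 0.30 (SE 0.08; limma, adjusted p = 0.014). These 2 of 14 lie near the 13.6% of all genes. Of 17 metal and oxidant response genes in cortex 4 rose, among them the ferritin gene Ftl1 by 0.29 (SE 0.05; limma, adjusted p = 0.0017), and 1, Mt3, which the glucocorticoid list also holds, fell by 0.35 (SE 0.08; limma, adjusted p = 0.006). RNA came from whole regions, so fewer cells of a type and less RNA per cell cannot be told apart.

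None of the 9 genes passed for 4b. In transgenic mice all 9 genes had positive differences, 4b minus control, in striatum and in cortex and 8 of 9 in cerebellum, where 50.4%, 51% and 50.6% of all genes did. The genes vary together from array to array, as described further on, so these signs are not independent. The medians of the 9 were 0.18, 0.17 and 0.45, and none passed, nor did any gene on the array (0%), with 1 of 9 at an unadjusted p under 0.05 in each region (2.54%, 2.13% and 4.65% of all genes; limma). That gene was Sult1a1, a phenol sulfotransferase. In transgenic cortex it lay at 10.47, 9.68, 10.15 and 11.19 under control and at 11.28, 10.49, 11.53 and 10.92 under 4b, which overlap. Its differences were 0.68 (95% interval 0.07 to 1.29) in striatum, 0.68 (0.13 to 1.22) in cortex and 0.79 (0.18 to 1.39) in cerebellum, with limma adjusted p = 1, 1 and 0.95. In wild-type mice the same differences were 0.17, -0.01 and 0.46, and the test of 4b by genotype did not pass in any region (limma, adjusted p = 1, 0.77 and 1; 0% of all genes), with 0 of 9 genes at an unadjusted p under 0.05 (2.02%, 6.56% and 3.18%). On the 1 BeadChip shared by the striatal groups the transgenic difference of Sult1a1 was -0.77, and on those of cortex and cerebellum it was 1.21, 0.77 and 1.28, each from 1 or 2 arrays a group. Mt2 in wild-type cerebellum lay at 10.41, 10.50 and 10.01 under control and 11.44, 10.59, 11.35 and 11.17 under 4b, without overlap, and did not pass either (0.83, 95% interval 0.13 to 1.53; limma, adjusted p = 0.54). In wild-type mice 0 of 9 passed in any region, nor did any gene on the array (0%). At an unadjusted p under 0.05 there were 0, 0 and 1 of the 9 (3.33%, 9.11% and 8.96% of all genes, limma). Over both genotypes 0 of 9 passed, beside 0.00831% of all genes in striatum and 0% elsewhere, with 0, 0 and 2 at an unadjusted p under 0.05 (4.09%, 3.92% and 11.2%). The 1 gene on the array that passed in striatum was Lcn2, a secreted acute phase protein on the list of other glucocorticoid-induced genes, which rose by 2.10 (SE 0.31; limma, adjusted p = 0.047; 1 of 33 tested genes of that list). How this call depends on the settings was not tested.

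**Figure D2:**
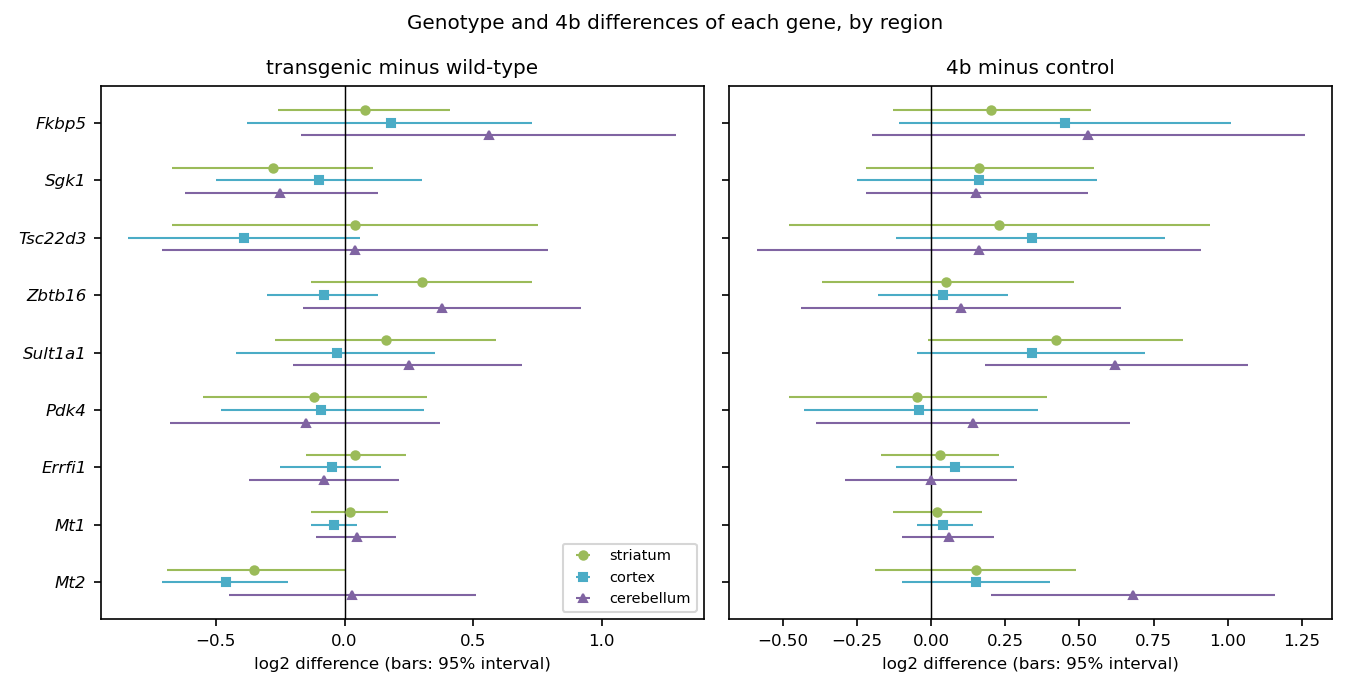
Log2 differences (x) of the 9 genes (y) for transgenic minus wild-type over both treatments (left) and 4b minus control over both genotypes (right), with 95% intervals, in each region. Only Mt2 in cortex passed (-0.46); nearly all other intervals cross 0.

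Arrays of the same group lay far apart for several of these genes. In transgenic cerebellum under 4b, Fkbp5 lay at 10.40, 8.23, 10.40 and 8.76, a range of 4.51-fold, and in transgenic cortex under 4b at 10.61, 8.84, 10.72 and 9.36. In wild-type cortex it ranged from 9.05 to 9.48 under control and from 9.30 to 10.14 under 4b. The within-group SD of Fkbp5 was 0.47 in transgenic and 0.21 in wild-type striatum, 0.80 and 0.31 in cortex, and 0.95 and 0.42 in cerebellum. Pdk4, a kinase that switches off pyruvate dehydrogenase in fasting, had SDs of 0.64 and 0.21, 0.58 and 0.17, and 0.61 and 0.45, and the SD of Sult1a1 was 2.97, 2.6 and 1.91 times larger in transgenic samples. The arrays that stood high for Fkbp5 stood high for Pdk4 as well. In transgenic cortex under 4b, Pdk4 lay at 10.25, 8.85, 9.97 and 8.88, the same replicates being high and low as for Fkbp5. In wild-type cortex under 4b its values were 9.38, 9.33, 9.34 and 9.42. Tsc22d3 in transgenic striatum under 4b ran 8.47, 9.82, 7.56 and 10.17 and in transgenic control cerebellum 7.52, 10.10, 8.18 and 9.44. In wild-type striatum it ran 9.10, 8.41, 8.56 and 8.84 under control and from 8.17 to 9.62 under 4b. Both ranges were narrower than that of transgenic striatum under 4b. In cortex the SD of Tsc22d3 was 0.49 in both genotypes. Over all genes tested the median ratio was 0.992, 0.913 and 1.03. Not every member did this: Sgk1, a kinase that regulates ion channels, had ratios of 1.02, 1.33 and 0.952, and Mt1 1.26, 0.607 and 0.327. In cortex the ratio was 1 for Tsc22d3 and 0.909 for Zbtb16.

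The spread was tested after these values had been seen. Absolute deviations from the group mean were compared between genotypes with limma, adjusted over all genes. In cortex Fkbp5 (0.47, adjusted p = 0.032) and Pdk4 (0.42, adjusted p = 0.040) passed, 2 of 9 beside 0.266% of all genes. In striatum and cerebellum 0 of 9 passed (0.0831% and 0.149% of all genes), with 4 of 9 at an unadjusted p under 0.05 in each (10.5% and 11.1%), 1 of them (Mt1 in cerebellum) with the smaller spread in transgenic samples. On simulated data this test missed most of the known changes in spread, so a count of 0 does not show equal spread. The cortical calls were not stable. With deviations from the group median neither passed (limma, adjusted p = 0.12 for each). When each of 16 arrays was left out in turn, Fkbp5 passed in 5 fits and Pdk4 in 2, with limma adjusted p up to 0.18. Of 4 tested microglial markers, 1 also passed for spread in cortex, and its part in the result was not tested.

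**Figure D3:**
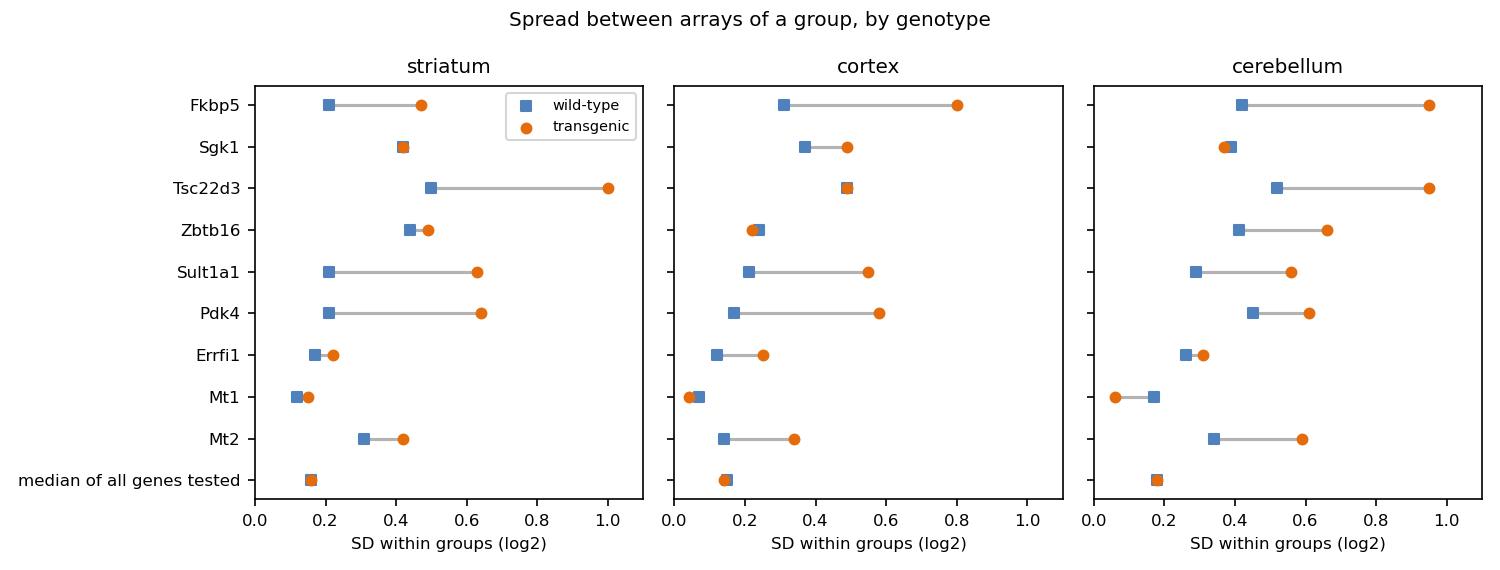
Within-group SD (x, log2) of the 9 genes and the median of all genes tested, for wild-type (squares) and transgenic (circles) samples in each region. Fkbp5, Sult1a1, Pdk4, Mt2 and Errfi1 show the larger SD in transgenic samples in all 3 regions, while the median of all genes stays near equal.

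The genes rose and fell together within groups. Each array's deviation from its group mean was taken, and over the 36 pairs of the 9 genes r ran from -0.32 to 0.83 with a median of 0.60. Fkbp5 was taken as the reference after these pairs had been seen. With it, Pdk4 had r = 0.83 (rho 0.84), Sult1a1 0.81 (0.83), Mt2 0.80 (0.80), Tsc22d3 0.79 (0.84), Zbtb16 0.74 (0.76), Sgk1 0.62 (0.65) and Errfi1 0.57 (0.58), over 47 arrays. By permutation within groups p was 1e-05, the smallest that 100000 resamples can give, for all of these but Errfi1 (7e-04 for r), over 8 pairs. Mt1 had r = 0.12 (permutation p = 0.38). Its within-group SD ran from 0.04 to 0.17 by region and genotype, beside medians of 0.14 to 0.18 over all genes tested. Whether its level near the top of the array's range played a part was not tested. Without the 2 arrays farthest out in Fkbp5 the 7 correlations were 0.58 to 0.81. Where regions come from the same mice the 47 arrays are not independent, and these p-values are then too small.

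In a limma fit with Fkbp5 as a term over all genes, 7 of the 8 other genes passed, all with positive slopes, beside 8.75% of all genes in either direction and 4.32% with positive slopes. For each unit of log2 Fkbp5, Tsc22d3 rose by 0.93 ± 0.12 (SE), Pdk4 by 0.67 ± 0.07 and Errfi1 by 0.22 ± 0.05 (limma, adjusted p = 1.5e-06, 1.8e-07 and 0.0071). The count was 7 whichever array was left out. It was also 7 of 8 in the 24 transgenic arrays (6.23% of all genes), and 1 of 8, Tsc22d3, in the 23 wild-type arrays (0.439%), where it was 0 without cerebellum wild-type 4b replicate 2. The r of Pdk4 was 0.91 in transgenic and 0.42 in wild-type arrays, that of Mt2 0.89 and 0.45, and that of Tsc22d3 0.79 and 0.82; the difference between genotypes was not tested, and wild-type arrays spread less. Within regions, which hold 15 or 16 arrays each, 4 of 8 passed in striatum (2.56%), 2 in cortex (0.365%) and 4 in cerebellum (0.133%). Those regional counts fell to 1, 0 and 0 with BeadChip as a fixed block, and to 1, 0 and 0 at the lowest without 1 array (striatum transgenic 4b replicate 3, cortex transgenic 4b replicate 2, and, in cerebellum, transgenic 4b replicate 2 or transgenic control replicate 2 or 3). The correlations within regions were positive throughout, 0.52 to 0.95 for the 7 genes. By BeadChip, r was positive for those genes on all 6 except for Sgk1 (-0.68) and Errfi1 (-0.25) on BeadChip 6. With BeadChip removed as well as group, the correlations of the 7 genes with Fkbp5 over all arrays were 0.52 to 0.85.

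**Figure D4:**
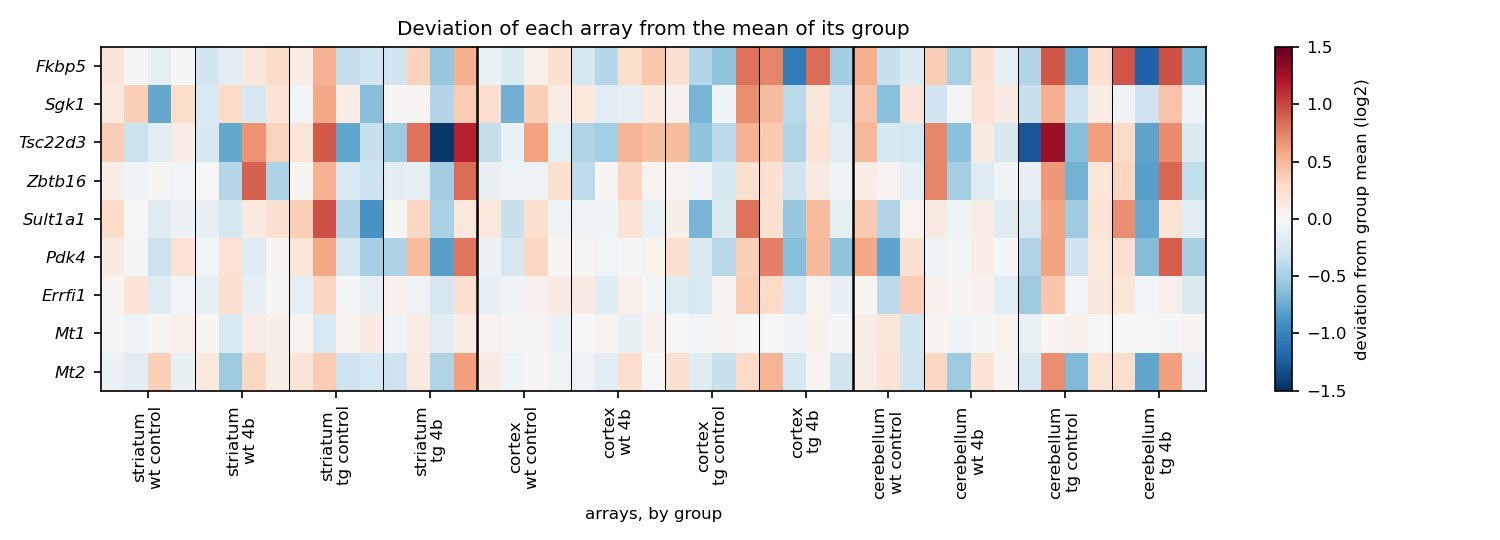
Deviation of each array (columns, by group) from its group mean in log2 units, for the 9 genes (rows); red is above and blue below the mean. Columns tend to be of 1 colour across Fkbp5, Tsc22d3, Sult1a1, Pdk4 and Mt2, most strongly in transgenic groups, while Mt1 stays near 0.

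**Figure D5:**
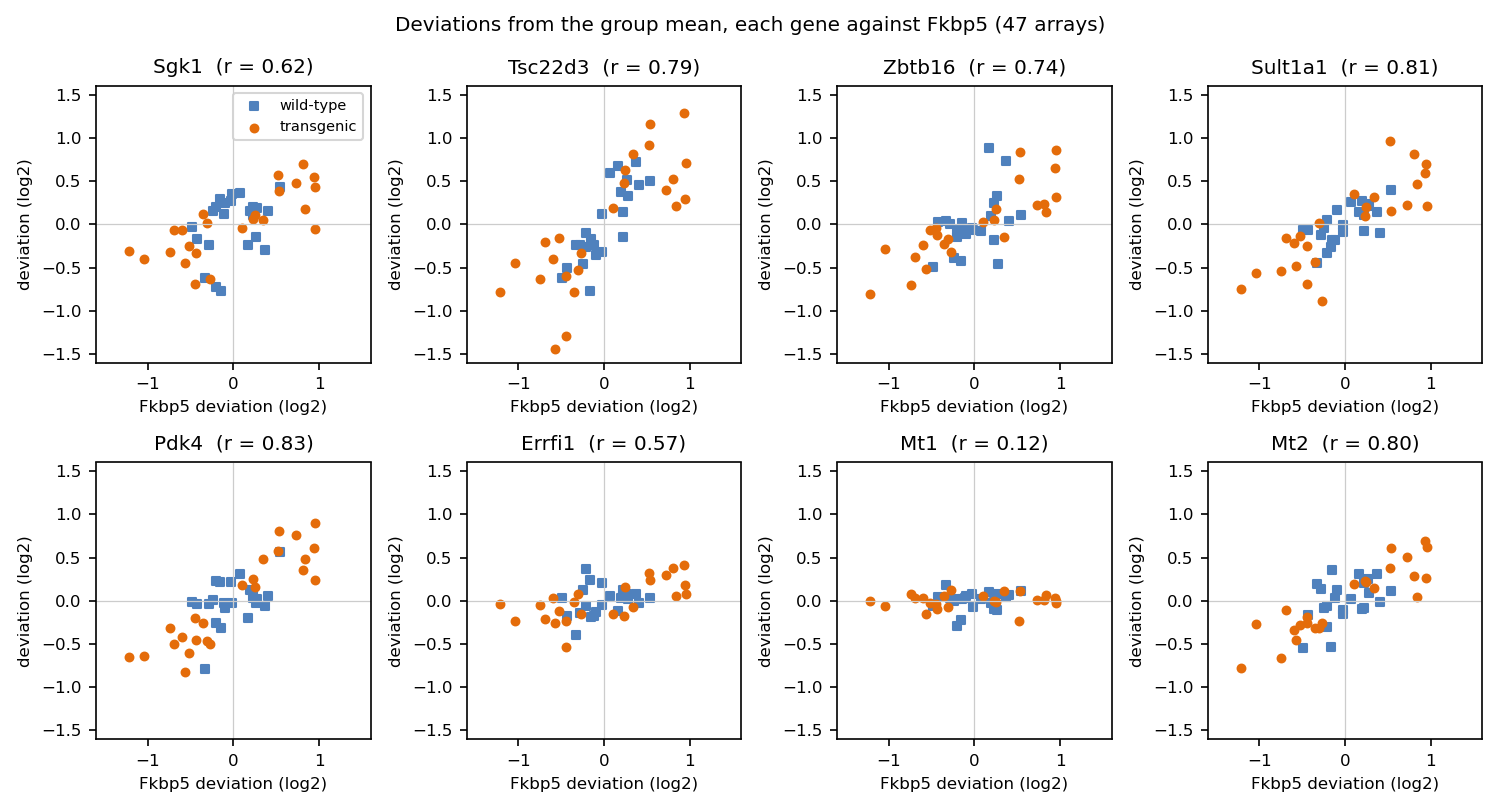
Deviation of each of the 8 other genes (y) against that of Fkbp5 (x) on 47 arrays, in log2 units, with squares for wild-type and circles for transgenic samples. Pdk4 (r = 0.83) and Sult1a1 (0.81) follow Fkbp5 most closely and Mt1 (0.12) does not.

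Genes outside the 10 shared the pattern. The gene most like Fkbp5, by r of deviations over 47 arrays among 12063 genes, was Cdkn1a (0.86), the cell cycle inhibitor p21, followed by Pdk4 and Sult1a1. Cdkn1a was also first for Tsc22d3 (0.86, with Pnpla2 at 0.86 and Mfsd2a at 0.85) and for Mt2 (0.84). Sult1a1 was most like Plin4 (0.84), a lipid droplet protein, Sgk1 most like Pdk4 (0.77), Zbtb16 most like Mt2 (0.83) and Errfi1 most like Zfp330 (0.81). Mt1 was most like ribosomal protein genes, Rps21 (0.83), Rps20 (0.82) and Rpl37 (0.80). Of 32 other glucocorticoid-induced genes above the filter, 11 had r over 0.5 with Fkbp5 (34.4%, beside 3.15% of all genes), among them Plin4 (0.80), Map3k6 (0.78) and Sgk3 (0.76), and the list median was 0.35 beside 0.00. None of 14 receptor partners and none of 17 metal and oxidant genes reached 0.5. Of 13 starvation and insulin-sensitive genes 2 did (15.4%), Angptl4 (0.67), which the glucocorticoid list also holds, and Foxo1 (0.56). The median of that list was 0.05, and 6 of the 13 were negative, with Pdk3 lowest at -0.57. Dusp1 (0.02) and Cebpd (-0.21), both known as glucocorticoid-induced, did not follow.

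Markers of some cell types moved with the same deviations. The mean of the 7 endothelial markers above the filter had r = -0.68 with Fkbp5 (7 of 7 negative, -0.83 in transgenic and -0.28 in wild-type arrays). The mean level of all 8 measured endothelial markers ran from 8.87 to 9.56 over all groups. The 4 microglial markers above the filter, of 5 measured, had r = -0.53 (4 of 4 negative, -0.72 in transgenic and 0.55 in wild-type arrays). The 4 pericyte markers above the filter, also of 5 measured, had r = -0.49 (-0.74 in transgenic and 0.11 in wild-type arrays). The mean of 7 astrocyte markers had r = 0.04, with members from -0.43 (Aqp4) to 0.67 (Gjb6). For choroid plexus markers r was -0.01, and for striatal, cortical and cerebellar neuron markers -0.17, -0.14 and -0.21. In transgenic arrays r was also -0.62 for oligodendrocyte markers (0.35 in wild-type arrays), -0.44 for meningeal and 0.55 for blood cell markers. Their part in the covariation was not tested. The r of Fkbp5 with the arrays' median intensity was -0.06, and with sex removed the 7 correlations over all arrays were 0.50 to 0.81. With sex as a covariate the wild-type slope of Tsc22d3 was 0.74 in place of 1.29 and did not pass (limma, adjusted p = 0.19), and the regional counts were 2 of 8 in striatum and 0 in cerebellum.

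Sex was the last source of difference examined. With sex as a term in each region 0 of 9 genes passed (limma; 0.0333%, 0.0415% and 0.0498% of all genes), 0, 3 and 2 had an unadjusted p under 0.05 (4.85%, 6.24% and 5.25%), and 9, 8 and 8 of 9 were higher in males, beside 49.2%, 50.2% and 51.6% of all genes. Since these genes vary together, their signs are not independent. In the 23 wild-type arrays taken over all regions, a comparison added after the levels had been seen, Tsc22d3 (male minus female 0.71 ± 0.12 SE, limma, adjusted p = 0.013) and Fkbp5 (0.44 ± 0.08, adjusted p = 0.027) passed, 2 of 9 beside 0.0912% of all genes. Tsc22d3 lies on the X chromosome and Fkbp5 on chromosome 17, and the part of X linkage was not tested. In wild-type striatum under 4b, Fkbp5 lay at 10.29 and 10.40 in males and 9.84 and 9.96 in females. Every male lay above every female for Fkbp5 in 5 of 6 wild-type groups, as for 0.323% of all genes, and for Tsc22d3 in 4 of 6, as for 2.66%. Where regions come from the same mice, the arrays pooled over regions are not independent, and the p-values for sex are then too small. The 6 groups may then repeat the same animals. In transgenic mice Fkbp5 separated in 1 of 6 groups and 0 of 9 genes passed (1.82% of all genes, limma), 1 having an unadjusted p under 0.05 (16.2%), and in the test of sex by genotype 0 of 9 passed (0.754%), 0 at an unadjusted p under 0.05 (10.8%). Mean Fkbp5 was still higher in males in 6 of 6 transgenic groups, by 0.17 (control striatum) to 1.26 (4b cerebellum). It was also higher in males in 6 of 6 wild-type groups. Each transgenic 4b group held 1 male and transgenic arrays spread more, so separation counts of the genotypes are not directly comparable. With BeadChip as a fixed block neither wild-type call held, at differences of 0.70 for Tsc22d3 and 0.35 for Fkbp5 (limma, adjusted p = 0.25 and 0.69), and Fkbp5 passed in 10 of 23 fits that left out 1 array. Of 4 blood cell markers, 1 passed in wild-type mice, Hba-a1, higher in males by 0.78 (list median 0.70), and their part in the result was not tested.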

How the data were processed

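Per the labels, total RNA of each sample was extracted with Trizol, biotin-labelled and hybridised to 1 array. BeadStudio is named in the submitters' processing notes, without a version. Intensity values as deposited (24613 probes, array medians 122.2 to 289.3) were not normalized between arrays and carry no detection p; quantile normalization of the intensities gave back the authors' deposited log2 values to within 0.0115. 1 column matched no sample and was not used. Depth does not apply to arrays, and their number limits the precision.

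Intensities were corrected with normexp (offset 50), quantile-normalized over 47 arrays and logged (R 4.3.3, limma 3.58.1). GEO's platform annotation gave 1 symbol for 20984 probes, several for 1 and none for 3628; a gene's brightest probe was kept (19596 features). Probes above the 40th percentile of the region mean were tested: 12030 in striatum, 12052 in cortex, 12049 in cerebellum and 12064 over all arrays. Tests were limma's lmFit and eBayes, two-sided, with Benjamini-Hochberg adjustment over all genes tested and a threshold of 0.05; within a region the 4 groups shared a spread estimate. Scripts were tested on simulated data. The genes named are the 10 members, called genes of the wider lists (up to 6 by p) and the 3 most correlated genes of each member; Dusp1, Cebpd and others given beside lists were picked with their values in view.

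The members, lists and tests were chosen with earlier results of these data known. Of 42 comparisons, 30 were planned, and 12 (sex within genotype, spread, covariation with Fkbp5) were added after the per-array values, SDs and correlations had been seen. Alternatives covered background correction, normalization, filters, probe choice, array weights, BeadChip and sex terms, replicate numbers and each array left out. Same-numbered samples did not deviate together (median r 0.05, 0.02 and 0.02 by region), so the numbers were not taken as pairs. Figures used matplotlib 3.10.9.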

Additional observations from a re-analysis of the deposited data

Results flagged for a closer look

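Of 99 sets of 4 arrays (a gene in a group) examined, 4 held a value far from the other 3 by Dixon's criterion (gap over range above 0.829), where chance gives about 1 in 20. Errfi1 in cerebellum wild-type 4b replicate 4 was low at 12.10, beside 12.31 to 12.35. Mt2 in striatum wild-type control replicate 3 was high at 10.21, beside 9.71 to 9.77. Sult1a1 in cortex wild-type 4b replicate 3 was high at 10.95, beside 10.64 to 10.70. Zbtb16 in cortex wild-type control replicate 4 was high at 9.49, beside 9.13 to 9.18. All 4 lay in wild-type groups. None of 63 interaction tests of a member passed.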

How the results depend on the processing

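Counts of member genes passing were recomputed 1292 times over 42 comparisons, and 78 moved by more than 1.5 times; a change of sign counted as a reversal only where the value passed before or after. For genotype under 4b in cortex the count rose from 0 to 1 (Mt2) with no background correction, cyclic loess, the authors' log2 values, the 60th percentile filter, the mean of all probes, an intensity trend with robust prior, array weights and the replicate block, the last being the only count of 30 that the replicate block moved. For genotype over both treatments in cortex it fell to 0 with all 47 arrays in the fit and with the BeadChip block. For cortex against cerebellum it was 1 with median scaling. Among comparisons added after seeing the data, sex in wild-type arrays gave 1 with cyclic loess, 1 with the other probes of Sgk1 and Tsc22d3 and 0 with the BeadChip block; sex in transgenic arrays gave 1 with array weights; spread in cortex gave 0 with group medians. Covariation in wild-type arrays gave 0 with median scaling, the other probes, the BeadChip block and sex as a covariate; in striatum 1 with the BeadChip block and 2 with sex; in cortex 1 with an offset of 16, 5 with median scaling, 7 with array weights and 0 with the BeadChip block; in cerebellum 0 with the BeadChip block and 0 with sex. The cause was not tested. With its other, dim probe and no filter Tsc22d3 turned to -0.07 for sex in wild-type arrays and to -0.07, -0.13, -0.06, -0.10 and -0.06 for covariation over all, wild-type, transgenic, striatal and cerebellar arrays.

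Leaving out each array, counts ranged from 0 to 1 for genotype under 4b in cortex (1 without cortex transgenic 4b replicate 1), 1 to 3 for striatum against cerebellum, 2 to 3 for cortex against cerebellum, 1 to 2 for sex in wild-type arrays, 0 to 2 and 0 to 1 for spread in cortex and cerebellum, 7 to 7 for covariation over all arrays, 0 to 1 in wild-type (0 without cerebellum wild-type 4b replicate 2), 6 to 7 in transgenic, 1 to 4 in striatal, 0 to 3 in cortical and 0 to 4 in cerebellar arrays. Nr3c1, below the filter, was not tested.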
